A study of Mus musculus with 8 samples.

Results

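The metallothionein and zinc transporter group described here was chosen by gene symbol and held 7 genes, Mt1, Mt2, Slc30a1, Slc30a10, Slc39a4, Slc39a5 and Slc39a8, out of 33467 genes in the deposited expression table. Each symbol had a row and all 7 passed the filter on low counts, Slc39a5 with at most 40 counts in any library. Liver RNA came from wild-type C57BL/6J mice in 2 groups of 4. One group ate a standard diet and the other a diet with 1% DDC (3,5-diethoxycarbonyl-1,4-dihydrocollidine, fed to mice as a model of bile duct disease), both for 4 weeks. No transgene or mutant allele is named for either group, the labels give neither age nor sex, and all 8 samples share 1 batch label. The question was how the liver transcripts of zinc storage and zinc transport differed between the diets.

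Metallothioneins are small cytosolic proteins that bind zinc and copper ions through clusters of cysteines, and the liver is a main site of their synthesis. Transporters of the SLC30 family (ZnT proteins) move zinc out of the cytosol, into organelles or out of the cell, and those of the SLC39 family (ZIP proteins) move it in. The zinc-sensing transcription factor MTF1, encoded by Mtf1, binds metal response elements in the promoters of Mt1, Mt2 and Slc30a1 and raises their transcription when free zinc rises.

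The coding sequences of Mt1 and Mt2 are shown because the results turn on this pair and because similar genes could share reads. Both are written 5′ to 3′ from the GRCm38 transcripts of the reference annotation, with the cysteine codons in capitals.
Mt1: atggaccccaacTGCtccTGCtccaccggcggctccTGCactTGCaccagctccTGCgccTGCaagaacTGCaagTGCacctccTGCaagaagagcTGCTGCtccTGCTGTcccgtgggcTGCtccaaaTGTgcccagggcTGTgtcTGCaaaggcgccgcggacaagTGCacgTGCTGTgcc
Mt2: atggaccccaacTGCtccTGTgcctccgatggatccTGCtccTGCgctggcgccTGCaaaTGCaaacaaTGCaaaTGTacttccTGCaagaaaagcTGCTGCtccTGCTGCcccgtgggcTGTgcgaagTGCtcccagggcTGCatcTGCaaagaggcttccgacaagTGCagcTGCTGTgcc
Each coding sequence held 183 bases, of which 145 (79.2%) were equal in place, and all 20 cysteine codons stood at the same positions. The longest run shared by the transcripts was 20 bases, and whether reads were shared was not tested.

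Mt2 (ENSMUSG00000031762) lies on GRCm38 chromosome 8 from 94172664 to 94173568 on the plus strand, in 3 exons, and Mt1 (ENSMUSG00000031765) lies downstream of it from 94179082 to 94180327, also on the plus strand and in 3 exons. The genes are 5513 bases apart. The promoter windows of Mt1, Mt2 and Slc30a1, from 250 bases before to 50 bases after a RefSeq start site (GRCm38.p6), are shown because these are the textbook targets of MTF1. Capitals mark each match to the core of the metal response element, TGCACNC or TGCGCNC, searched on both strands.
Mt1, chr8:94178839-94179138, plus strand: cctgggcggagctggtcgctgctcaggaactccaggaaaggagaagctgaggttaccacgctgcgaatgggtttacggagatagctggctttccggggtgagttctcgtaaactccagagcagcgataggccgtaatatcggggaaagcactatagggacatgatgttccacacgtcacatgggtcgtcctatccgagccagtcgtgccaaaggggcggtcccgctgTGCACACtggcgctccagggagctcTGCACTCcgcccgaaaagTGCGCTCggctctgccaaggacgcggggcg
Mt2, chr8:94172368-94172667, plus strand: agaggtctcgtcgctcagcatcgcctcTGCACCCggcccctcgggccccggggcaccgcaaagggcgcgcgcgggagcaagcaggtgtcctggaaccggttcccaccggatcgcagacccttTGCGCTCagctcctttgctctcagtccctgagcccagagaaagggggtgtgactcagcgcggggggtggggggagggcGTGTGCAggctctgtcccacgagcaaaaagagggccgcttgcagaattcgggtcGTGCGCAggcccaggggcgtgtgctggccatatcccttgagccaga
Slc30a1, chr1:191906531-191906830, plus strand: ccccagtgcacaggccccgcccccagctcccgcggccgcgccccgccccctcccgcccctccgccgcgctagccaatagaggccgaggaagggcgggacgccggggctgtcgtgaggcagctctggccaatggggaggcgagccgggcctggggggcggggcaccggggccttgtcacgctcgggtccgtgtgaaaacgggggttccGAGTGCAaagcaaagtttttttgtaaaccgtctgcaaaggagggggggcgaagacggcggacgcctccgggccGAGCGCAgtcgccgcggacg
The Mt1 window held 3 matches, the Mt2 window 4 and the Slc30a1 window 2. The RefSeq start site of Mt2 lies before its annotated gene start. Its window ends at 94172667, so nearly all of it lies before that gene start at 94172664. Of 32851 windows of the same length in the RefSeq table, 25.7% held at least 1 match, 7.11% at least 2, 1.97% at least 3 and 0.517% at least 4. Slc30a10 held 3 matches, of which 2 overlap on opposite strands. Slc39a5 and Slc39a8 each have 2 windows in the table, and in each case 1 window held 1 match and the other none. Slc39a4 was not in the table. A match is a match of letters only, and binding was not measured.

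**Figure D1:**
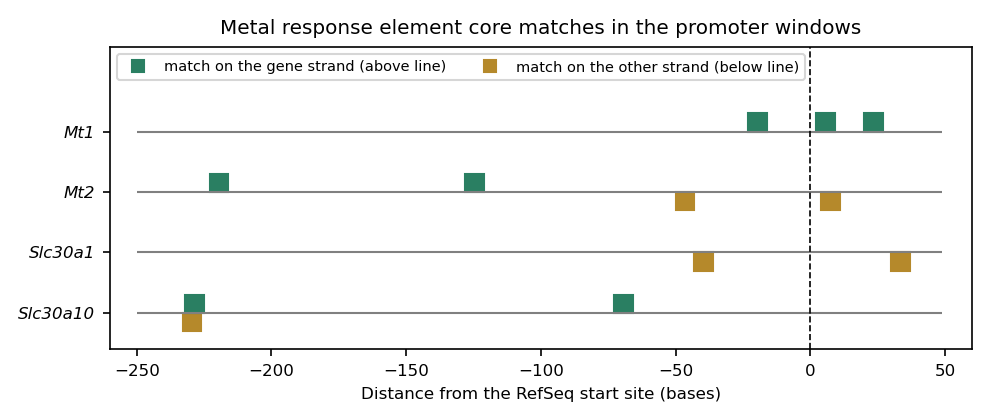
Position of each match to TGCACNC or TGCGCNC in the promoter windows of Mt1, Mt2, Slc30a1 and Slc30a10, with 1 row for each window. The x axis gives bases from the RefSeq start site, which for Mt2 lies before the annotated gene start. Mt2 has 4 matches, Mt1 and Slc30a10 have 3, and Slc30a1 has 2.

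The deposited count table held 61179103 to 81664058 counts per library. Composition differed strongly between the diets: TMM scaling factors, which correct for it, were 0.792 to 0.816 for controls against 1.21 to 1.27 for DDC libraries. Dropping this correction moved the median log2 fold change of all 19535 tested genes from 0.07 to 0.70, a shift of 0.62, so values below are on the TMM scale unless another is named. Any such change of scaling moves a gene and the median gene alike, so a difference from the median gene stays the same by construction. Libraries within a group also stood apart. In a chi-square comparison of counts, controls 1 and 3 differed least (13.5 per degree of freedom), controls 2 and 4 came next (62.7), and the pairs across gave 162 to 220. DDC 1 differed from the other DDC libraries by 89.7 to 98.9, against 15.9 to 22.5 among those. The p-values set the difference between the diets against the spread between the mice within a group. They treat the 8 mice as independent, and may be too small if libraries that stand together are not. All p-values come from edgeR's quasi-likelihood test with Benjamini-Hochberg adjustment over the tested genes unless another test is named.

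The tissue markers matched liver. Summed CPM (counts per TMM-scaled library size) of 7 hepatocyte genes was 138977 to 164955 in controls and 57318 to 72527 in DDC livers, and 7 of 7 fell. Of 6 cholangiocyte markers 5 rose, and their sum went from 66.7 to 145 in controls to 699 to 1072 in DDC livers. All 6 macrophage markers rose (163 to 195 against 836 to 998 CPM in sum), as did 4 of 6 stellate cell and fibroblast markers (254 to 336 against 852 to 987). Of 5 endothelial markers 2 rose, of 5 neutrophil markers 3, and of 5 T and NK cell markers 2, whereas 3 of 4 B and plasma cell markers and 3 of 3 tested erythroid markers fell. Without the composition correction 5 of 5 endothelial, 5 of 5 T and NK cell and 5 of 6 stellate cell markers were higher, and 6 of 7 hepatocyte, 2 of 4 B and plasma cell and 1 of 3 erythroid markers lower. Among all tested genes 30.2% were higher and 26.6% lower, or 58.9% and 8.96% without the correction. The part of these shifts in the values of the zinc genes was not tested, and in bulk tissue fewer cells of a type and less RNA per cell cannot be told apart.

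Of the 7 genes, 5 fell in DDC livers (Mt1, Mt2, Slc30a1, Slc30a10 and Slc39a8), 1 rose (Slc39a4) and 1 did not pass the test (Slc39a5). Among all tested genes 56.8% passed, 26.6% lower and 30.2% higher. The values of 6 of the 7 did not overlap between the groups, against 52.6% of all tested genes. The median log2 fold change of the 7 was -1.47, beside 0.07 for all genes. Without the composition correction 3 of the 7 were lower (Mt1, Mt2 and Slc30a10) and 1 higher (Slc39a4), where 67.8% of all genes passed, 8.96% lower and 58.9% higher.

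Both expressed metallothioneins were lower in every DDC liver. Mt1 stood at 386, 336, 369 and 440.0 CPM in controls 1 to 4 and at 139.9, 139.2, 139.2 and 135.6 CPM in DDC 1 to 4. The DDC values lay within a span narrower than any gap between neighbouring controls, and all were below the lowest control. The group means were 383 ± 43.6 (SD, n = 4) and 138 ± 1.94 (SD, n = 4), a 2.76-fold lower level (log2 fold change -1.47, SE 0.08, adjusted p = 5.64e-07). Relative to the median gene the difference was -1.54, and without the composition correction it was -0.84 (adjusted p = 8.64e-06).

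Mt2 stood at 213, 188.5, 196 and 236 CPM in the controls and at 73.0, 52.1, 53.1 and 52.4 CPM in the DDC libraries. DDC 1 was the highest of its group, yet far below the lowest control. The means of 208 ± 21.3 (SD, n = 4) and 57.7 ± 10.2 (SD, n = 4) gave a 3.61-fold lower level (log2 fold change -1.85, SE 0.13, adjusted p = 1.74e-06), or -1.23 without the composition correction. Of the other metallothioneins, Mt3, known from brain, had counts in control 2 alone and Mt4, known from stratified epithelium, in DDC 2 and DDC 4 alone, with means of at most 0.020 CPM, and neither was tested.

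**Figure D2:**
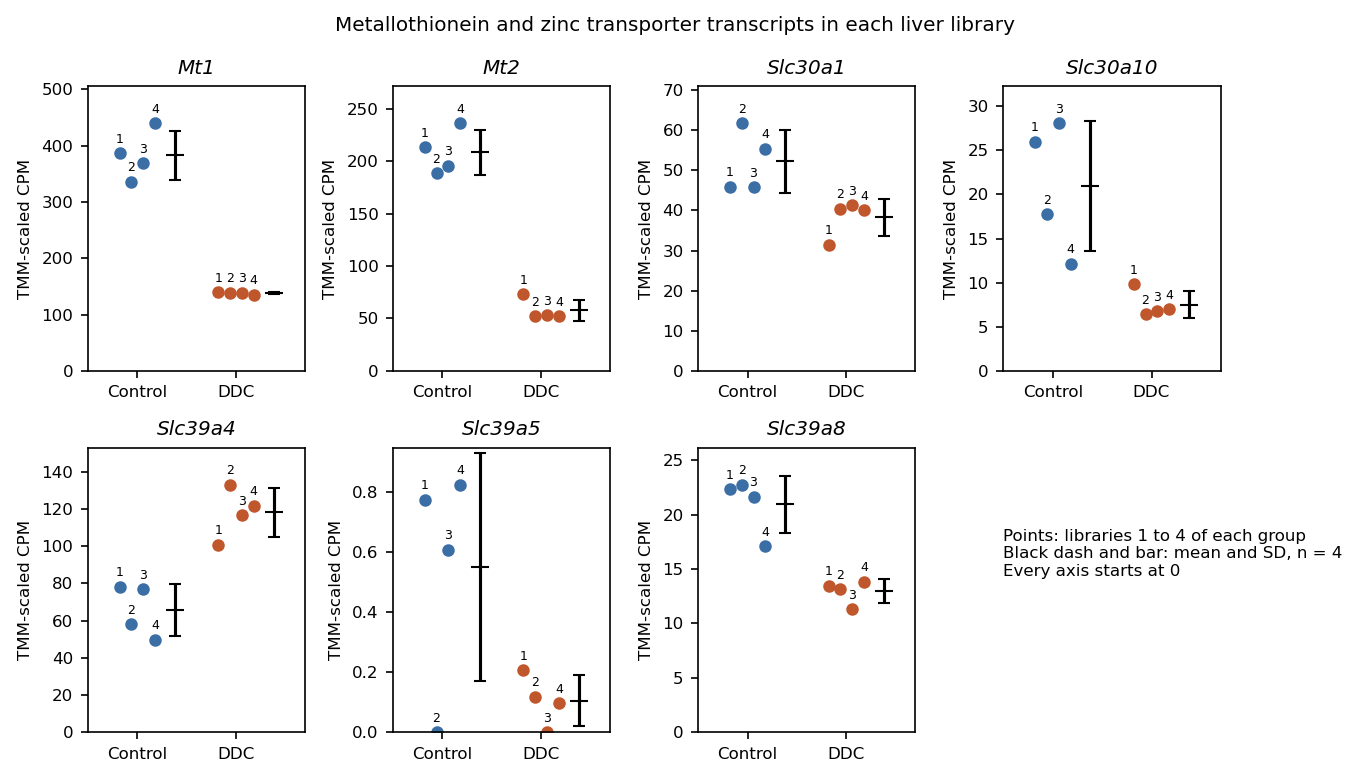
TMM-scaled CPM of each of the 7 genes in every library (points, 4 control and 4 DDC mice) with the mean and SD of each group, on an axis of its own for each gene. DDC libraries lie below all controls for Mt1, Mt2, Slc30a1, Slc30a10 and Slc39a8 and above them for Slc39a4, and the groups overlap for Slc39a5.

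In the authors' FPKM, Mt2 led the pair in every control and Mt1 led it in 3 of 4 DDC livers. By counts Mt1 led in every library, with 19929 against 11009 for Mt2 in control 1. The reference transcripts are of similar length, 549 bases for Mt1 and 511 for Mt2. The lead of Mt2 therefore rests on the lengths behind the FPKM, which are not known here. The FPKM ratio of Mt2 to Mt1 was 1.17, 1.19, 1.12 and 1.14 in controls 1 to 4 and 1.11, 0.794, 0.809 and 0.820 in DDC 1 to 4. DDC 1 lay just under the lowest control and apart from the other 3 DDC livers. The mean ratio was 1.16 ± 0.030 (SD, n = 4) in controls and 0.882 ± 0.150 (SD, n = 4) in DDC livers. The difference of mean log2 ratios was -0.40, with a two-sided exact permutation p = 0.0286, the smallest that 4 against 4 allows, and 0.0571 after adjustment over the 2 ratios tested, which does not pass 0.05. It was larger without DDC 1, at -0.52, and it was -0.40 with counts in place of FPKM.

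Mt2 shares 432 of its 588 exon bases with Gm45774, an antisense gene on the minus strand from 94170748 to 94173412. The libraries were made with a dUTP protocol that keeps strand, but no source used here states a strand setting for the counting, so reads of Mt2 and Gm45774 may not have been told apart. Gm45774 had 4703, 4251, 4489 and 4265 counts in controls and 1175, 1737, 2031 and 2375 in DDC livers, a fall from 87.0 ± 3.43 to 20.3 ± 4.36 CPM (SD, n = 4 each, adjusted p = 1.51e-06). DDC 1 had the lowest Gm45774 value and the highest Mt2 value of its group. With both genes' counts summed over those of Mt1, an alternative chosen after seeing the data, the ratio was 0.737 to 0.809 in control livers and 0.522 to 0.630 after DDC, a log2 difference of -0.46 (exact permutation p = 0.0286, n = 4 each). Mt1 has no overlapping gene in the annotation.

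**Figure D3:**
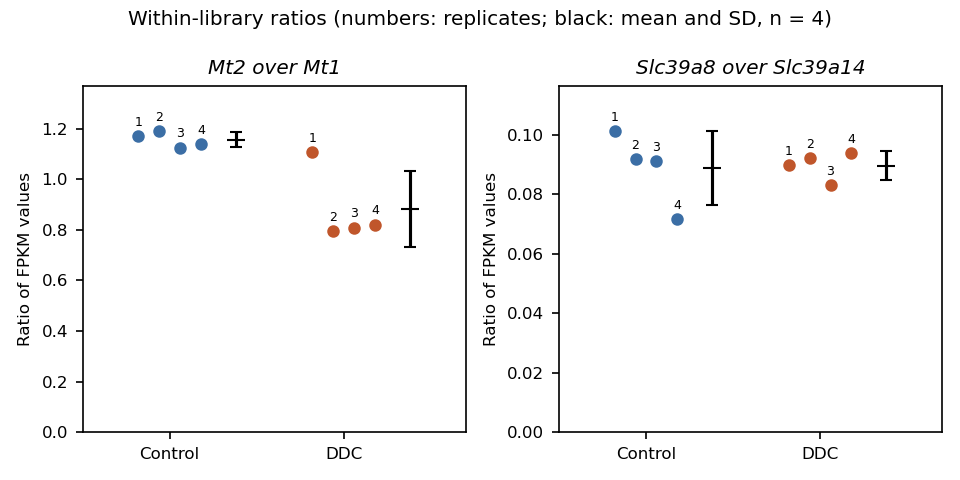
FPKM ratio of Mt2 to Mt1 and of Slc39a8 to Slc39a14 in every library (points), with the mean and SD of each group of 4 mice. The Mt2 to Mt1 ratio was 1.12 to 1.19 in controls and 0.794 to 1.11 in DDC livers, whereas the ranges of the Slc39a8 to Slc39a14 ratio overlap.

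Both exporters among the 7 genes fell on the TMM scale. Slc30a1 (ENSMUSG00000037434, chromosome 1 from 191906767 to 191913247, plus strand, 2 exons) encodes ZnT1, the exporter of zinc across the plasma membrane. It stood at 45.9, 61.8, 45.8 and 55.4 CPM in controls and at 31.4, 40.4, 41.4 and 40.1 CPM in DDC livers. Controls 1 and 3 were the low pair, and the highest DDC value lay just below them. The level fell from 52.2 ± 7.82 to 38.3 ± 4.63 CPM (SD, n = 4 each), which is 1.36-fold lower (log2 fold change -0.45, SE 0.12, adjusted p = 0.0108). This call depended on the scaling and on the libraries. Without the composition correction the sign turned, to 0.18 (adjusted p = 0.233), and without controls 2 and 4 the difference was -0.27 (adjusted p = 0.0785). Relative to the median gene the difference was -0.52. The overlapping antisense gene 1700034H15Rik had 24 to 131 counts.

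Slc30a10 (ENSMUSG00000026614, chromosome 1 from 185454848 to 185468762, plus strand, 4 exons) belongs to the same family by sequence but is known as an exporter of manganese, which the liver passes into bile. Its CPM was 26.0, 17.8, 28.1 and 12.2 in controls and 9.85, 6.44, 6.80 and 7.02 in DDC livers. Controls 1 and 3 were the high pair this time, and DDC 1 was the highest DDC library. The fall from 21.0 ± 7.38 to 7.53 ± 1.57 CPM (SD, n = 4 each) was 2.79-fold (log2 fold change -1.48, SE 0.26, adjusted p = 0.00121), and -0.86 without the composition correction (adjusted p = 0.0157). Leaving out controls 1 and 3 gave -0.997, and leaving out 2 and 4 gave -1.85. By limma on log2(FPKM + 1) the adjusted p was 0.0586. Gm2061, which overlaps it on the minus strand, had 20 to 65 counts.

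Across the SLC30 family, 10 genes had counts and 9 were tested. Of these, 1 rose and 4 fell, beside 30.2% higher and 26.6% lower among all tested genes. Their median log2 fold change was -0.12, and it turned to 0.50 without the composition correction. Slc30a7, which carries zinc into the secretory pathway, was 0.28 higher, while Slc30a5, which does the same, and Slc30a9, a mitochondrial zinc exporter, were -0.38 and -0.26. Slc30a2, Slc30a3, Slc30a4 and Slc30a6 did not pass the test. Without the composition correction 6 of the 9 were higher and 1 was lower, beside 58.9% and 8.96% of all tested genes. On that scale Slc30a5, Slc30a6 and Slc30a9 turned to 0.24, 0.50 and 0.36. Relative to the median gene, 6 of the 9 lay below and 3 above.

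Among the importers, Slc39a4 alone of the 7 genes rose. Slc39a4 (ENSMUSG00000063354, chromosome 15 from 76612383 to 76617384, minus strand, 11 exons) encodes ZIP4, the plasma membrane importer known for zinc uptake in the intestine, whose loss causes the zinc deficiency acrodermatitis enteropathica. Control CPM was 78.3, 58.2, 76.9 and 49.8, and DDC CPM was 101, 133, 117 and 122. The high pair of controls, 1 and 3, lay below the lowest DDC library, DDC 1. The level rose from 65.8 ± 14.1 to 118 ± 13.3 CPM (SD, n = 4 each), 1.80-fold (log2 fold change 0.84, SE 0.15, adjusted p = 0.0011). The difference was 1.47 without the composition correction, and on the TMM scale it was 1.12 when controls 1 and 3 were left out and 0.60 when 2 and 4 were. No other gene overlaps it in the annotation. Of 5 markers of the intestinal epithelium, where ZIP4 is best known, Sis and Cdx2 were at 0 in every library, Fabp2 and Lgals4 fell, and Alpi, at most 0.297 CPM, was not tested. Their sum was 83.5 to 104 CPM in controls and 18.6 to 25.5 in DDC livers. Of 6 cholangiocyte markers 5 rose as Slc39a4 did, and Krt19 did not pass the test (adjusted p = 0.476). All 6 macrophage markers and 4 of 6 stellate cell and fibroblast markers also rose, while 7 of 7 hepatocyte markers fell. The part of these cell types in the Slc39a4 value was not tested.

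Slc39a8 (ENSMUSG00000053897, chromosome 3 from 135825279 to 135888572, plus strand, 8 exons) encodes ZIP8, an importer of zinc and manganese. Its CPM was 22.3, 22.7, 21.6 and 17.1 in controls and 13.5, 13.1, 11.3 and 13.8 in DDC livers, with control 4 the nearest to the DDC group. The fall from 20.9 ± 2.62 to 12.9 ± 1.11 CPM (SD, n = 4 each) was 1.62-fold (log2 fold change -0.69, SE 0.11, adjusted p = 0.000452). It was not called without the composition correction, at -0.07 (adjusted p = 0.583), nor by limma on log2 FPKM, and the 3 genes that overlap it had at most 85 counts in any library. Its close relative Slc39a14, which encodes ZIP14, an importer of iron, zinc and manganese, stood at 324 ± 15.6 and 198 ± 8.13 CPM (SD, n = 4 each; log2 fold change -0.71, adjusted p = 8.09e-06), and at -0.09 without the correction. The FPKM ratio of Slc39a8 to Slc39a14, which does not depend on the scaling, was 0.0890 ± 0.0125 in controls and 0.0897 ± 0.00475 in DDC livers (SD, n = 4 each), a log2 difference of 0.02 with exact permutation p = 0.8286. The difference was within the spread between mice.

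Slc39a5 (ENSMUSG00000039878, chromosome 10 from 128395931 to 128401229, minus strand, 12 exons) encodes ZIP5, a basolateral zinc importer. It had 40, 0, 32 and 40 counts in controls 1 to 4 and 16, 10, 0 and 9 counts in DDC 1 to 4. Control 2 and DDC 3 had none, where 0 counts allow up to 3, or 0.0588 and 0.0290 CPM, counting error only. The means were 0.55 ± 0.38 and 0.11 ± 0.08 CPM (SD, n = 4 each), the groups overlapped, and the difference did not pass the test (log2 fold change -2.39, SE 1.18, adjusted p = 0.111). It did pass without control 2 (-2.81, adjusted p = 0.0277). Ankrd52, a coding gene on the other strand that overlaps it, had 1792 to 4278 counts per library, and whether any were assigned to Slc39a5 was not tested. ZIP5 is also made in the pancreas, and the 5 acinar cell markers summed to 5.68 to 23.3 CPM in controls and 3.24 to 5.03 in DDC livers. Cela1 had counts in every library and fell from 7.69 ± 2.86 to 4.16 ± 0.79 CPM (SD, n = 4 each, adjusted p = 0.0151), but did not pass without the composition correction (-0.27, adjusted p = 0.373). Cela1 was highest in control 2, at 11.7 CPM, where Slc39a5 had 0 counts. Ctrb1 was at 11.6 CPM in control 2 and at most 0.136 CPM elsewhere, Pnlip was at 0.078 CPM in control 1 and 0 elsewhere, and Cpa1 and Amy2a5 were at 0 in every library. Their part in the Slc39a5 values was not tested.

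Across the SLC39 family, 14 genes had counts and 13 were tested, of which 4 rose and 5 fell, beside the same 30.2% and 26.6% of all tested genes. Their median was -0.11, and it turned to 0.52 without the composition correction. Besides Slc39a4 the genes that rose were Slc39a10 (0.47), Slc39a11 (0.46) and Slc39a13, a gene of connective tissue (0.67). Besides Slc39a8 and Slc39a14 those that fell were Slc39a2 (-1.39), Slc39a7, which releases zinc from the endoplasmic reticulum (-0.38), and Slc39a9 (-0.62). Without that correction 8 passed as higher and Slc39a2 alone as lower, beside 58.9% and 8.96% of all tested genes. On that scale Slc39a1, Slc39a6, Slc39a7 and Slc39a9 turned to 0.59, 0.52, 0.24 and 0.0022. Slc39a10 and Slc39a11 no longer passed without controls 1 and 3 (adjusted p = 0.0653 and 0.0694). Relative to the median gene, 8 of the 13 lay below and 5 above. Mtf1 itself stood at 19.0 ± 1.63 and 20.5 ± 1.39 CPM (SD, n = 4 each; log2 fold change 0.11, adjusted p = 0.271), and passed only without the composition correction, at 0.74.

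**Figure D4:**
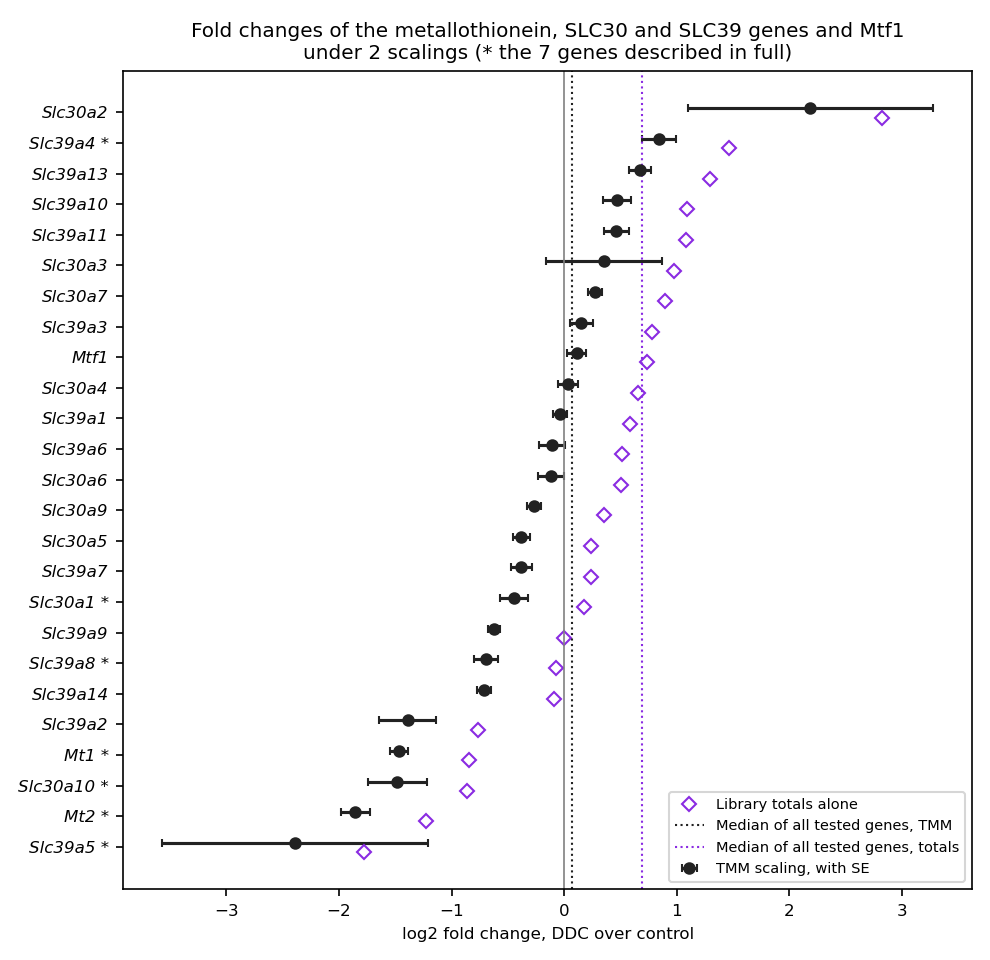
Log2 fold change (DDC over control) of the metallothionein, SLC30 and SLC39 genes and Mtf1, with the standard error on the TMM scale and the value without composition correction beside it. Mt1, Mt2, Slc30a10, Slc39a2, Slc39a5, Slc39a8 and Slc39a14 are below 0 on both scales. Slc39a4, Slc30a2, Slc30a3, Slc30a4, Slc30a7, Slc39a3, Slc39a10, Slc39a11, Slc39a13 and Mtf1 are above 0 on both. Slc30a1, Slc30a5, Slc30a6, Slc30a9, Slc39a1, Slc39a6, Slc39a7 and Slc39a9 change sign. Not all of these differences passed the test.

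The authors' FPKM is per length and carries no composition correction, so its group differences are not those of the TMM scale. In it Mt2 and Mt1 led the family by far in both groups. In controls Mt2 stood at 276 ± 23.9 and Mt1 at 239 ± 23.5 FPKM (SD, n = 4 each), with overlapping ranges, and Slc39a14 followed at 23.9, Slc39a1 at 22.6, Slc39a7 at 20.4 and Slc39a4 at 16.5. In DDC livers Mt1 stood at 133 ± 2.59 and Mt2 at 117 ± 19.7 (SD, n = 4 each), again overlapping. The order within this pair rests on the lengths that the FPKM used, since Mt1 had more counts in every library. Reference transcripts of 549 bases for Mt1 and 511 for Mt2 would not put Mt2 first. Slc39a4 came next at 45.4 ± 5.05 (SD, n = 4), separate from Mt2 above it and from Slc39a1, at 33.8, below it. By mean it was at place 6 in controls, where its range overlapped that of Slc39a7 above it, and at place 3 in DDC livers. The other members stood lower. Slc30a1 was at 7.76 FPKM in controls and 8.74 in DDC livers, Slc30a10 at 2.52 and 1.38, Slc39a8 at 2.12 and 2.01, and Slc39a5 at 0.187 and 0.051. The range of Slc30a1 overlapped neither neighbour in either group, whereas Slc30a10 and Slc39a8 overlapped the gene next above in both groups. Ranked among all genes by mean FPKM, Mt2 went from 177 to 324, Mt1 from 205 to 292 and Slc39a4 from 1936 to 873.

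**Figure D5:**
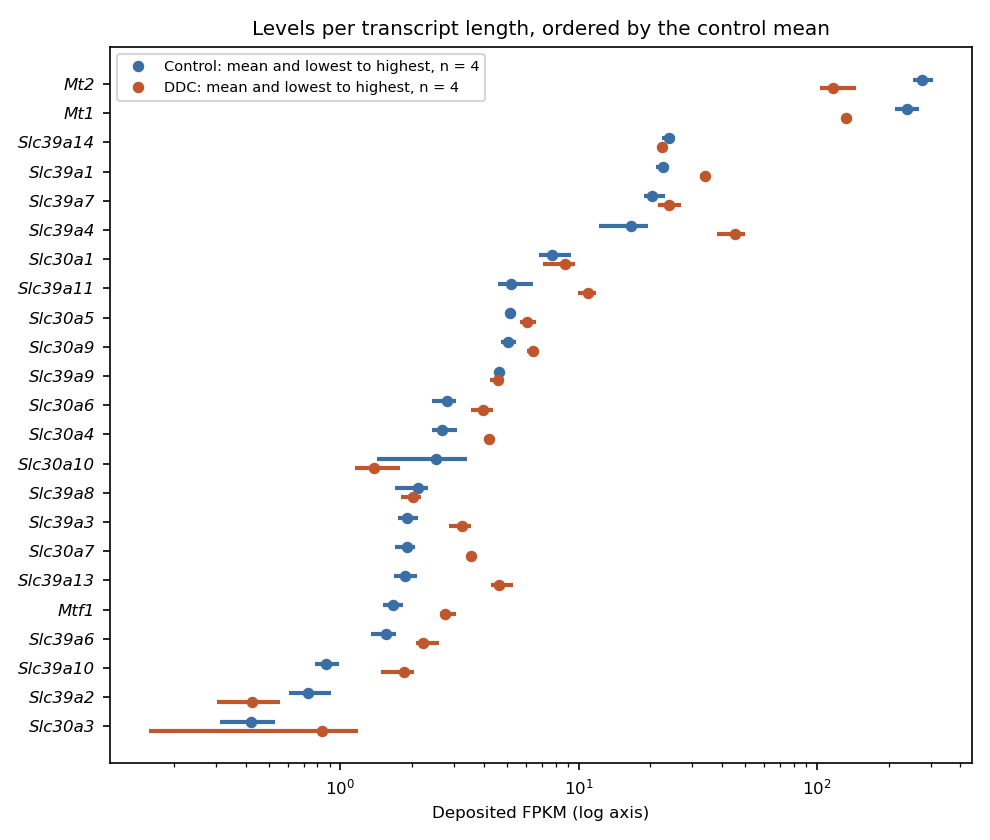
Deposited FPKM, without the composition correction, on a log axis for the family genes above 0 in every library. Points are group means and lines run from the lowest to the highest of 4 control or 4 DDC livers. Mt1 and Mt2 lie above all others in both groups, and Slc39a4 moves from 16.5 to 45.4 FPKM.

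The genes whose profiles over the 8 libraries were nearest to each member, by the root mean square difference of centred log2 CPM among 8559 candidates, were as follows. Mt1 was nearest to Bnip3 (0.052), a gene of mitochondrial turnover, and Sod1 (0.057), the copper-zinc superoxide dismutase, and Mt2 to Decr1 (0.081) and Ech1 (0.086). The metallothioneins were not each other's nearest, at a difference of 0.246, which placed Mt2 at rank 573 for Mt1 and Mt1 at rank 181 for Mt2. Slc30a1 was nearest to Aqp11 (0.051) and Sbk1 (0.072), and Slc30a10 to Cyp39a1 (0.160) and Ank (0.187). Slc39a4 was nearest to Dqx1 (0.060) and Cxadr (0.072), and Slc39a8 to Ttc17 (0.070) and B3galt1 (0.074). Slc39a5 had no near neighbour: its lowest differences were 1.18, to Adam1a, and 1.23, to Slc15a2. These are descriptions over libraries that share the diet difference, and carry no test.

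Genes of pathways known to raise metallothionein or to share its metals moved in several directions, and their counts stand beside 30.2% of all tested genes higher and 26.6% lower, or 58.9% and 8.96% without the composition correction. Of 11 glucocorticoid response genes 9 fell and 1 rose (median log2 fold change -1.13), among them Zbtb16, a transcription factor (7.03-fold lower), Tat, tyrosine aminotransferase (5.14-fold), and Pck1, of gluconeogenesis (4.21-fold). Without the correction 5 were lower and 1 higher, with a median of -0.51. Of 13 tested IL6 and STAT3 response genes 8 fell and 1 rose, with a median of -0.78. Lcn2, a siderophore-binding protein, rose 10.1-fold, whereas Saa1, an acute phase gene whose reads may be split with its near-identical relatives, fell 4.09-fold and Il6ra, the IL6 receptor, 3.60-fold. Without the correction 6 were higher and 5 lower, with a median of -0.15. Of 8 targets of the oxidative stress factor NRF2, 5 rose and 1 fell (median 1.23), with Slc7a11, the cystine importer, at 3.34, Srxn1 at 2.86 and the heme-degrading Hmox1 at 2.16. Without the correction all 8 were higher, with a median of 1.85. Of 12 copper handling genes 4 rose and 6 fell (median -0.29). Cp, which encodes the copper protein ceruloplasmin, rose from 1032 ± 76.9 to 2637 ± 460.1 CPM (SD, n = 4 each), and Sod1 and its copper chaperone Ccs fell by 1.45 and 1.06 on the log2 scale. Without the correction 6 were higher and 3 lower, and the median turned to 0.33. The lists were chosen with earlier results of these data known.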

How the data were processed

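Liver RNA of 4 control and 4 DDC-fed mice was sequenced as paired reads from dUTP, poly(A)-selected libraries, per the labels' protocols. The deposited counts are whole numbers per gene that the authors left unnormalized. The authors' deposited FPKM values divide such counts by a length for each gene, not known here, and by library size. The submitters' processing notes name cutadapt, FastQC, HISAT2, StringTie and DESeq2 on GRCm38 and mm10, without versions. Sequences came from the GRCm38 annotation and RefSeq GRCm38.p6 promoter windows.

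In R 4.3.3, counts were tested in edgeR 4.0.16 by robust quasi-likelihood fits after filterByExpr and TMM scaling, two-sided, over 19535 genes, at an adjusted p of 0.05, without covariates. CPM are TMM-scaled. The fit was run on simulated counts without the composition difference or library clusters of these data, so it cannot show how the fit handles those. There it called 15 of 50 genes raised 1.5-fold, 30 of 50 raised 2-fold and 38 of 50 raised 4-fold. Of 50 genes lowered to 0.5-fold it called 19. All calls numbered 106, of which 4 were false. Library depth was 61179103 to 81664058 counts. Intervals and floors cover counting error only. Ratios were tested by exact permutation. Alternatives were DESeq2 1.42.0, limma 3.58.1 on log2 FPKM, other scalings and filters, a replicate block and left-out libraries. Leaving out pairs of controls was added after seeing the data. The members and lists were chosen with earlier results of these data known. The rule for naming genes took the members, their families, the largest 3 called genes at 1 CPM or more of each other list (marker lists are given mostly as counts), and the 2 nearest profiles per member; Gm45774 and the other overlapping genes, and the single pancreas and intestine markers, were chosen after their values were seen. No library repeated another within sampling noise.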

Additional observations from a re-analysis of the deposited data

Results flagged for a closer look

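Of 54 groups of 4 values examined for a sample far from the others, 6 were marked, where chance marks about 1 in 20. 4 of the 6 concern DDC 1. Mt2 stood at 73.0 CPM in DDC 1 and at 52.1 to 53.1 in the other DDC livers, and the Mt2 to Mt1 ratio at 1.11 against 0.794 to 0.820. Slc30a1 was 31.4 CPM in DDC 1 against 40.1 to 41.4, and Slc39a10 was 7.64 against 9.82 to 10.2. In DDC 4, Mt1 was 135.6 CPM against 139.2 to 139.9 in the other DDC livers, a gap of a few percent that stands out because those 3 values nearly coincide, and Slc39a13 was 21.2 against 17.9 to 18.2. The causes were not tested.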

How the results depend on the processing

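Mt1, Mt2 and Slc39a4 kept their direction and call under all 18 alternatives. The count of called genes ran from 9464 (replicate block) to 14147, against 11098, and the share higher went from 53.1% to 86.8% with library totals alone and to 87.6% and 87.7% with limma on FPKM.

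Values that turned sign are listed for library totals alone, then limma on log2(FPKM + 0.1) and + 1: Slc30a1 0.18, 0.17 and 0.15, Slc30a5 0.24, 0.23 and 0.20, Slc30a6 0.50, 0.48 and 0.38, Slc30a9 0.36, 0.35 and 0.30, Slc39a1 0.59, 0.58 and 0.56, Slc39a6 0.52, 0.48 and 0.33, Slc39a7 0.24, 0.23 and 0.22. Slc39a9 turned with totals alone (0.0022). These settings leave out the composition correction. Slc39a1 also turned with no count filter (0.0071) and without controls 2 and 4 (0.0097), and Slc30a4 without controls 1 and 3 (-0.038), the cause not tested.

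Leaving out 1 library at a time moved Slc30a4 from -0.023 to 0.095, the Mt2 to Mt1 log2 ratio difference from -0.52 to -0.36 (exact p = 0.0286 to 0.0571, where 3 against 4 cannot go below 0.0286) and the Slc39a8 to Slc39a14 one from -0.079 (without control 4) to 0.088, with -0.00046 without DDC 4. Slc30a4 was -0.0165 without DDC 1. As a replicate block, the Mt2 to Mt1 difference was -0.40 with an exact sign-flip p = 0.125, the smallest 4 pairs allow. Same-numbered samples correlated at -0.21 to 0.029, so the numbers were not taken as pairs. Low counts limit Slc39a5, Slc30a2, Mt3 and Mt4.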
